A study of Mus musculus with 11 samples.

Results

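The pre-B-cell receptor and its surrogate light chain were followed as 8 genes, Igll1, Vpreb1, Vpreb2, Vpreb3, Cd79a, Cd79b, Blnk and Ighm, in mouse acute myeloid leukaemia (AML) carrying Flt3-ITD and NHD13. The genes were chosen by name for their place in the receptor and its signalling, not by a threshold on their values. Earlier results of these data were known when they were chosen. By their Ensembl identifiers, all 8 were found among the 55487 genes of the table. All 8 passed the filter on low counts, which left 14521 genes for testing. Bulk RNA sequencing had been done on 11 AML samples, 5 labelled Ifnar1 -/- and 6 labelled Ifnar1 +/-. Ifnar1 encodes a chain of the type I interferon receptor, so the comparison was loss of both copies of the receptor gene against loss of 1. Flt3-ITD is an activating internal tandem duplication of the Flt3 receptor tyrosine kinase, and NHD13 is a transgene for a NUP98-HOXD13 fusion protein. Both alleles were shared by all 11 samples, so no sample without them and none with 2 intact Ifnar1 copies entered the comparison. The series' design text calls the material HPCs, while the sample labels call it AML. Age, the promoter that drives each allele and any sorting of the cells are not stated in the labels used here. Whether each sample is a mouse of its own is not stated either, so the p-values describe only how these samples vary, which may be technical in part.

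In B-cell development, a precursor that has joined a mu heavy chain gene tests the new chain before it has a light chain. The heavy chain, encoded by Ighm, pairs with a surrogate light chain made of lambda5 (Igll1) and a VpreB protein (Vpreb1 or Vpreb2). This complex reaches the surface with the signalling chains Ig-alpha (Cd79a) and Ig-beta (Cd79b) and signals through Syk and the adaptor Blnk. The signal drives the cells to divide, and the surrogate light chain genes are then switched off as kappa and lambda light chain genes are joined. AML is by definition a myeloid disease, and these genes are not part of the usual myeloid programme.

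Library totals ran from 25583642 to 38728143 estimated counts. No pair of libraries of the same genotype agreed within sampling noise. Ifnar1 transcript, counted over the whole gene, was 36.2, 54.1, 133, 47.2 and 74.6 CPM (counts scaled to library size) in Ifnar1 -/- libraries 1 to 5, against 39.2, 49.9, 84.4, 68.4, 72.1 and 51.3 CPM in Ifnar1 +/- libraries 1 to 6. These ranges overlapped, and a whole-gene count does not show whether part of the gene is disrupted, so genotype here means the labelled genotype. Ifnar1 -/- library 2 stood apart through a summed eosinophil marker level of 55379 CPM and a summed neutrophil marker level of 29724 CPM. Ifnar1 +/- library 6 stood apart through a summed erythroid marker level of 85520 CPM. Neither library was high in any of the 8 genes, and values without both are given with the fold changes. Of 14521 genes, edgeR's quasi-likelihood test with Benjamini-Hochberg adjustment called 0 between the genotypes at an adjusted p under 0.05 (0%), with 289 at an unadjusted p under 0.05 (1.99%). DESeq2 called 5 of 27995 genes and limma voom with quality weights called 0.

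All 8 genes were high in the same 5 libraries and low in the other 6, and both kinds of library occurred in both genotypes. The high libraries were Ifnar1 -/- libraries 3 and 5 and Ifnar1 +/- libraries 3, 4 and 5. The 8 genes together took 0.905% and 1.23% of all counts in the high Ifnar1 -/- libraries, and 1.18%, 1.16% and 1.28% in the high Ifnar1 +/- libraries. They took 0.00626%, 0.00653% and 0.00193% in Ifnar1 -/- libraries 1, 2 and 4, and 0.00333%, 0.0171% and 0.00354% in Ifnar1 +/- libraries 1, 2 and 6. In a bulk sample, fewer cells of a type and less RNA per cell cannot be told apart. The myeloid granule genes Mpo and Elane, which mark early granulocyte and monocyte precursors, did not exceed 53.5 and 33.5 CPM in any library. The list of 8 neutrophil genes that holds them summed to 4156 and 902 CPM in Ifnar1 -/- libraries 3 and 5, against 215, 1352 and 1143 CPM in Ifnar1 +/- libraries 3, 4 and 5. Mpo had 0.123, 20.9, 3.61, 0.0736 and 16.1 CPM in Ifnar1 -/- libraries 1 to 5, against 2.61, 21.3, 0.935, 53.5, 9.28 and 27.4 CPM in Ifnar1 +/- libraries 1 to 6. Kit, a receptor of progenitors, had 122, 20.3, 6.75, 313 and 53.3 CPM in Ifnar1 -/- libraries, against 598, 79.5, 51.2, 93.0, 14.7 and 103 CPM in Ifnar1 +/- libraries. The ranges of both genes overlapped between the genotypes.

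**Figure D1:**
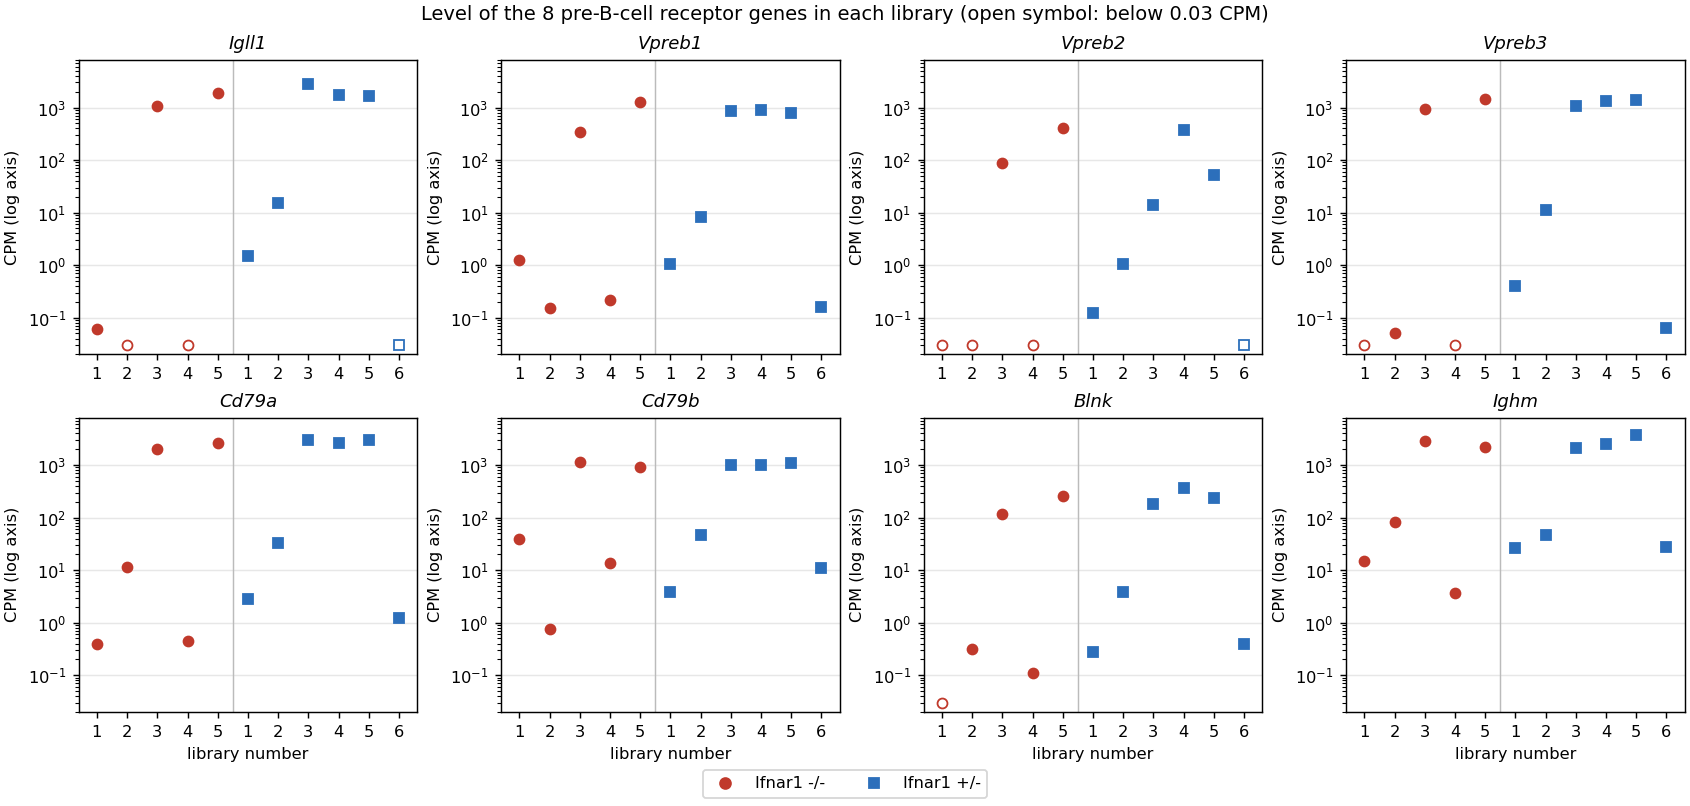
Level of each of the 8 genes in CPM (log axis) in every library, with Ifnar1 -/- libraries left of Ifnar1 +/- libraries and open symbols below 0.03 CPM. Ifnar1 -/- libraries 3 and 5 and Ifnar1 +/- libraries 3, 4 and 5 hold the 5 highest values of every gene.

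The surrogate light chain genes lie on chromosome 16 in GRCm38 (GENCODE M21 models). Igll1 (ENSMUSG00000075370, chr16:16860671-16863985, minus strand) is followed at 4418 bp by Vpreb1 (ENSMUSG00000059305, chr16:16868403-16870843, minus strand). Vpreb2 (ENSMUSG00000059280, chr16:17980428-17981273, plus strand) lies 1109585 bp further on. Ifnar1 lies on the same chromosome, 73503965 bp beyond Vpreb2. Vpreb3 (ENSMUSG00000000903), a VpreB relative that is not a chain of the surface receptor, lies on chromosome 10 at chr10:75943057-75949657, plus strand. The RefSeq promoter windows of these 4 genes (GRCm38.p6, each 300 bases around the annotated start and printed 5′ to 3′ on the gene's own strand) are given because these genes varied together across the libraries. They are chr16:16863936-16864235 (minus strand) for Igll1, chr16:16869206-16869505 (minus strand) for Vpreb1, chr16:17980315-17980614 (plus strand) for Vpreb2 and chr10:75948050-75948349 (plus strand) for Vpreb3. Capitals mark matches on either strand to 5 motifs: the EBF core CCCNNGGG, the E-boxes CAGGTG and CAGCTG, the octamer ATGCAAAT and the ETS motif CAGGAAGT.
Igll1: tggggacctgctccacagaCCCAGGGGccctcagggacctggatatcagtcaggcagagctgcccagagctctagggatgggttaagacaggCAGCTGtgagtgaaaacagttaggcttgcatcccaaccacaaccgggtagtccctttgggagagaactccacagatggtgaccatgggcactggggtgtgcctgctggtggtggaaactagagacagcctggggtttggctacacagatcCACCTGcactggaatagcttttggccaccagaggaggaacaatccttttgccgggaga
Vpreb1: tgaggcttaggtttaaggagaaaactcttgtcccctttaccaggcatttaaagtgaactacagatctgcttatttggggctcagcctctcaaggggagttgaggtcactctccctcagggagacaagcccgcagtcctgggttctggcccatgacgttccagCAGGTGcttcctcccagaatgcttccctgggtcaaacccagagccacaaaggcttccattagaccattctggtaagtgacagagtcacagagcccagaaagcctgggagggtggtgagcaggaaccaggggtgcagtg
Vpreb2: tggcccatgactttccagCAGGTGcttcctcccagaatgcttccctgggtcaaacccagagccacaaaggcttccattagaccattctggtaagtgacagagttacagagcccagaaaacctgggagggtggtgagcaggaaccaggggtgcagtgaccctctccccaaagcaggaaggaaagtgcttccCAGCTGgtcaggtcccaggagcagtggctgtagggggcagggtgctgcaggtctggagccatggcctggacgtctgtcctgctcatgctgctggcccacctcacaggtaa
Vpreb3: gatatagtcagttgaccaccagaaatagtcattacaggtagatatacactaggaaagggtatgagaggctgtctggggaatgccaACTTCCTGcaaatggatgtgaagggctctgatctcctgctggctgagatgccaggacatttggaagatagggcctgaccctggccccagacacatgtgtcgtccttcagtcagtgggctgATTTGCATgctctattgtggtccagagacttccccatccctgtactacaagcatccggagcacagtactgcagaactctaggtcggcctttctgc

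The motifs were chosen with the sequences in view, and a match is a description of letters only. RefSeq windows matched 6 of the 8 genes: those 4, Cd79a and Blnk. Positions are relative to the RefSeq start used for each window. Igll1 held CCCNNGGG at -231, CAGCTG at -158 and the reverse complement of CAGGTG at -8. Vpreb1 held CAGGTG at -88, and Vpreb2 held it at -232 with CAGCTG at -60. Vpreb3 held the octamer at -45 and the ETS motif at -165, both as reverse complements. The Vpreb1 and Vpreb3 windows lie inside their GENCODE models, and the Vpreb2 window spans the start of its model. The RefSeq and GENCODE starts of these genes thus differ, and the CAGCTG of Vpreb2 lies inside its GENCODE model. No matches overlapped in the 4 windows. CAGGTG or its reverse complement stood in 5 of the 6 windows, against 20.2% of 32851 RefSeq promoter windows of the same length. The octamer stood in 2 of the 6, Vpreb3 and Blnk, against 1.74% of all windows. The ETS motif stood in 3 of the 6, Vpreb3, Cd79a and Blnk, against 3.33%, CAGCTG in 2 of the 6 against 16.3%, and CCCNNGGG in 1 of the 6 against 13.7%. The windows of Vpreb1 and Vpreb2 are not independent. Base 145 of the Vpreb1 window aligned with base 1 of the Vpreb2 window, and 153 of the 156 aligned bases were identical (98.1%). The 3 differences, counted from 1 at the 5′ end of the Vpreb1 window with the Vpreb1 base first, were G156T, C248T and G263A. The CAGGTG of both windows lay inside this shared stretch.

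Igll1, the lambda5 chain of the surrogate light chain, had 0.0617, 0, 1055, 0 and 1908 CPM in Ifnar1 -/- libraries 1 to 5, against 1.49, 15.5, 2818, 1703, 1659 and 0 CPM in Ifnar1 +/- libraries 1 to 6. The 3 libraries without an Igll1 count allowed up to 0.155 and 0.11 CPM in Ifnar1 -/- libraries 2 and 4 and 0.0972 CPM in Ifnar1 +/- library 6, taking 3 counts per library as the limit. Such limits cover counting error only. The fifth-highest library was 68.2-fold above the sixth, while the 5 highest spanned 2.67-fold. The genotypes overlapped, from 0 to 1908 CPM in Ifnar1 -/- libraries and from 0 to 2818 CPM in Ifnar1 +/- libraries. The means were 593 ± 866 CPM in Ifnar1 -/- libraries (SD, n = 5) and 1033 ± 1199 CPM in Ifnar1 +/- libraries (SD, n = 6). Ifnar1 -/- over Ifnar1 +/-, this was a log2 fold change of -0.80 with a standard error of 2.58 (edgeR adjusted p = 0.9998).

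Vpreb1, a VpreB chain of the surrogate light chain, had 1.23, 0.154, 338, 0.221 and 1265 CPM in Ifnar1 -/- libraries 1 to 5, against 1.05, 8.31, 842, 901, 785 and 0.162 CPM in Ifnar1 +/- libraries 1 to 6. The highest and the fifth-highest value were both in Ifnar1 -/- libraries, 3.75-fold apart, with the 3 high Ifnar1 +/- libraries between them. The fifth-highest was 40.7-fold above the sixth. The log2 fold change was -0.40 with a standard error of 2.20 (edgeR adjusted p = 0.9998).

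Vpreb2, the near-identical second VpreB gene, varied most among the high libraries. It had 0, 0, 86.9, 0 and 415 CPM in Ifnar1 -/- libraries 1 to 5, against 0.121, 1.07, 14.2, 374, 51.4 and 0 CPM in Ifnar1 +/- libraries 1 to 6. The 5 highest libraries spanned 29.2-fold, more than for any other of the 8 genes, and the fifth was 13.3-fold above the sixth. Ifnar1 -/- library 5 and Ifnar1 +/- library 4 stood far above the other libraries of their genotype. Ifnar1 +/- library 3 had the highest Igll1 level of all and the lowest Vpreb2 level of the 5. The log2 fold change was 0.45 with a standard error of 2.40 (edgeR adjusted p = 0.9998), and its sign depended on single libraries: it was -1.76 without Ifnar1 -/- library 5 and 2.91 without Ifnar1 +/- library 4.

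Vpreb2 counts made up 20.5% of the Vpreb1 and Vpreb2 counts in Ifnar1 -/- library 3 (95% Wilson interval 19.7% to 21.2%) and 24.7% in Ifnar1 -/- library 5 (24.3% to 25.1%). The share was 1.66% (1.51% to 1.83%), 29.3% (28.9% to 29.8%) and 6.15% (5.9% to 6.41%) in Ifnar1 +/- libraries 3, 4 and 5. The proportion of the VpreB genes was not the same among the libraries where both were high, and these intervals did not overlap. The split between these genes is uncertain. Their transcripts were identical at 739 of 759 aligned bases (97.4%), shared an unbroken run of 196 bases, and shared 136 of 685 windows of 75 bases (19.9%). The deposited estimates, taken with no tolerance, were not whole numbers in 11 of 11 libraries for Vpreb1 and in 7 of 11 for Vpreb2, those of Cd79a were not whole in 5 of 11, and those of Igll1, Vpreb3, Cd79b, Blnk and Ighm were whole in every library. With both genes summed, the log2 fold change was -0.24.

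Vpreb3 had 0, 0.0515, 948, 0 and 1462 CPM in Ifnar1 -/- libraries 1 to 5, against 0.402, 11.4, 1051, 1360, 1400 and 0.0648 CPM in Ifnar1 +/- libraries 1 to 6. It separated the libraries most sharply, with the fifth-highest 83.3-fold above the sixth and only 1.54-fold between the 5 highest. The log2 fold change was -0.40 with a standard error of 2.51 (edgeR adjusted p = 0.9998).

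The signalling chains of the receptor are shared by the pre-B-cell receptor and the later B-cell receptor. Cd79a (ENSMUSG00000003379, chr7:24897381-24902197, plus strand), which encodes Ig-alpha, had 0.401, 11.5, 1992, 0.442 and 2682 CPM in Ifnar1 -/- libraries 1 to 5, against 2.86, 33.6, 2945, 2605, 3046 and 1.23 CPM in Ifnar1 +/- libraries 1 to 6. The 5 high libraries lay within 1.53-fold of each other and 59.4-fold above the next. In edgeR the Cd79a log2 fold change was -0.62 with a standard error of 2.17 (edgeR adjusted p = 0.9998).

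Cd79b (ENSMUSG00000040592, chr11:106311341-106314762, minus strand), which encodes Ig-beta, had 38.8, 0.772, 1153, 13.8 and 911 CPM in Ifnar1 -/- libraries 1 to 5, against 3.82, 46.6, 1018, 1000, 1083 and 10.9 CPM in Ifnar1 +/- libraries 1 to 6. Its 5 high values were the closest together, within 1.27-fold. In the low libraries it did not follow its partner chain. Ifnar1 -/- library 1 held 1258 counts of Cd79b against 13 of Cd79a, and Ifnar1 -/- library 4 held 375 against 12, while Ifnar1 -/- library 2 held 15 against 223. Ifnar1 +/- library 6 had a Cd79b to Cd79a count ratio of 8.87, against 0.579 and 0.34 in the high Ifnar1 -/- libraries and 0.346, 0.384 and 0.356 in the high Ifnar1 +/- libraries. In edgeR the Cd79b log2 fold change was -0.32 with a standard error of 1.67 (edgeR adjusted p = 0.9998).

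Ighm (ENSMUSG00000076617, chr12:113418558-113422730, minus strand), the mu heavy chain that the surrogate light chain pairs with, had 14.8, 83.1, 2932, 3.68 and 2184 CPM in Ifnar1 -/- libraries 1 to 5, against 26.1, 46.0, 2069, 2494, 3663 and 27.0 CPM in Ifnar1 +/- libraries 1 to 6. It was counted in every library, and no low library was under 3.68 CPM. The 5 high libraries spanned 1.77-fold and stood 24.9-fold above the next. Its sixth-highest library was Ifnar1 -/- library 2, whereas that of the other 7 genes was Ifnar1 +/- library 2. In edgeR the Ighm log2 fold change was -0.41 with a standard error of 1.69 (edgeR adjusted p = 0.9998).

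Blnk (ENSMUSG00000061132, chr19:40928927-40994535, minus strand), the adaptor that couples Syk to downstream enzymes, had 0, 0.309, 118, 0.11 and 254 CPM in Ifnar1 -/- libraries 1 to 5, against 0.281, 3.84, 179, 368, 231.5 and 0.389 CPM in Ifnar1 +/- libraries 1 to 6. The 5 high libraries spanned 3.12-fold and stood 30.8-fold above the next. In edgeR the Blnk log2 fold change was -0.81 with a standard error of 2.12 (edgeR adjusted p = 0.9998).

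Levels of different genes were compared as CPM per kilobase of the longest coding transcript. On that scale Igll1 stood at 1213 and 2193 in Ifnar1 -/- libraries 3 and 5, and at 3239, 1958 and 1906 in Ifnar1 +/- libraries 3, 4 and 5. Vpreb1 stood at 441 and 1652 in the same Ifnar1 -/- libraries, and at 1099, 1176 and 1025 in the Ifnar1 +/- libraries. Igll1 was above Vpreb1 in all 5. Vpreb2 stood at 114.5 and 546.9 in the Ifnar1 -/- libraries, and at 18.8, 492.5 and 67.8 in the Ifnar1 +/- libraries, so that in Ifnar1 -/- library 5 the VpreB genes together were not below Igll1. Vpreb3 stood at 1300 and 2005 in those Ifnar1 -/- libraries, and at 1441, 1866 and 1921 in the Ifnar1 +/- libraries. Cd79a stood at 1367 and 1841 in the Ifnar1 -/- libraries, and at 2021, 1788 and 2091 in the Ifnar1 +/- libraries. Cd79b was below Cd79a in all 5 libraries, at 806 and 637 in Ifnar1 -/- and 712, 699 and 757 in Ifnar1 +/-. Blnk was lower still, at 56.3 and 121 in Ifnar1 -/- and 85.5, 176 and 110.4 in Ifnar1 +/-.

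Between the genotypes, edgeR called 0 of the 8 genes at an adjusted p under 0.05, against 0% of all genes tested, and 0 at an unadjusted p under 0.05, against 1.99% of all genes. DESeq2 and limma voom with quality weights also called 0 of the 8. The fitted log2 fold change was below 0 for 7 of the 8, with a median of -0.41, beside 51.7% of all genes below 0. The 8 genes were high in the same libraries, so their signs are not independent and do not amount to a trend. The standard errors ran from 1.67 to 2.58, several times each fold change. For 0 of the 8 did the genotypes separate without overlap, against 0.124% of all genes. Exact permutation tests of log2(CPM + 1) over the 462 assignments of 11 libraries, two-sided, gave p from 0.403 for Igll1 and Vpreb3 to 0.905 for Vpreb2. Without Ifnar1 -/- library 2 and Ifnar1 +/- library 6, an alternative added after the data were seen, the log2 fold changes ran from -0.73 for Blnk to 0.53 for Vpreb2, and Igll1 was at -0.72. With limma voom they were further from 0, at -7.14 for Igll1, -7.54 for Vpreb3, -4.77 for Vpreb2 and -2.24 for Cd79b, with adjusted p between 0.508 and 0.588. Medians also differed more than means. The median of Cd79a was 11.5 CPM in Ifnar1 -/- libraries and 1319 CPM in Ifnar1 +/- libraries, with 2 of 5 Ifnar1 -/- and 3 of 6 Ifnar1 +/- libraries high.

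**Figure D2:**
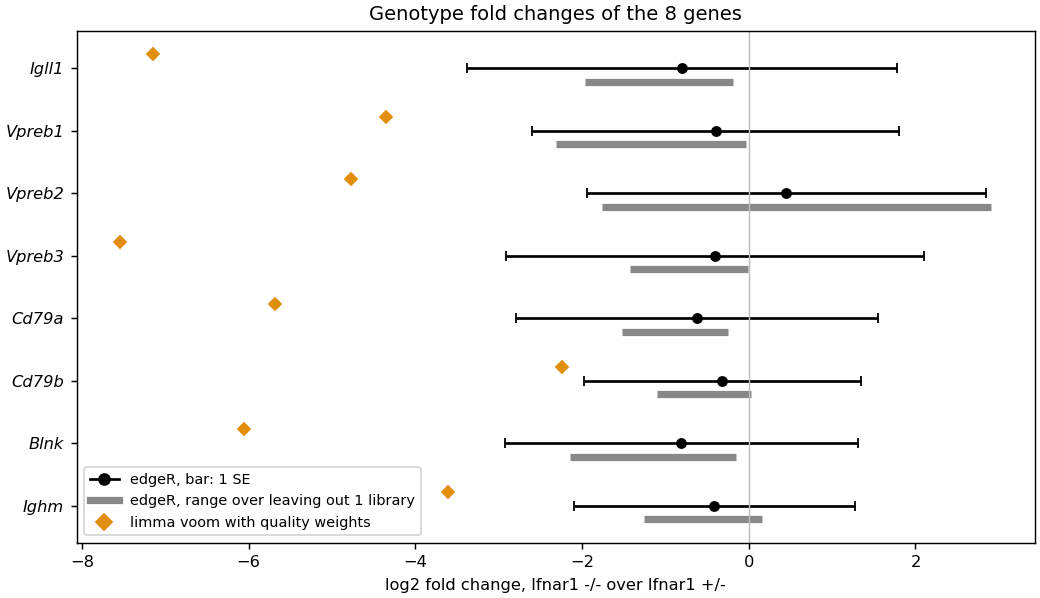
Log2 fold change of each gene, Ifnar1 -/- over Ifnar1 +/-, from edgeR, as black points with bars of 1 standard error. Grey bars give the range when each library in turn is left out, and diamonds give limma voom. Every black bar crosses 0, with points from 0.45 for Vpreb2 to -0.81 for Blnk.

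Ratios of counts between genes that bear on the B-lineage stage were read in each library where both genes had at least 20 counts. Ifnar1 -/- library 4 allowed none of them, and no stage was assigned to any library. A ratio of counts depends on gene length, so each was compared between libraries and not with 1. The surrogate light chain is set against mu heavy chain by Igll1 over Ighm, which was 0.36 and 0.874 in Ifnar1 -/- libraries 3 and 5, against 1.36, 0.683 and 0.453 in Ifnar1 +/- libraries 3, 4 and 5. It was 0.0571 and 0.336 in Ifnar1 +/- libraries 1 and 2. Vpreb1 over Ighm ran from 0.0834 to 0.579 in 3 Ifnar1 -/- libraries and from 0.0397 to 0.407 in 5 Ifnar1 +/- libraries. Its difference in log2 ratio was -0.07 (exact permutation test over 56 assignments, two-sided, p = 0.929, adjusted p = 0.929). Ighm over Cd79a was 7.24, 1.47 and 0.814 in Ifnar1 -/- libraries 2, 3 and 5, against 9.13, 1.37, 0.703, 0.958, 1.2 and 21.9 in Ifnar1 +/- libraries 1 to 6. No high library exceeded 1.47, and the highest ratios were in libraries low in Cd79a. Ifnar1 -/- libraries 1 and 4 were left out, with 481 and 100 counts of Ighm against 13 and 12 of Cd79a. Without them the difference in log2 ratio was -0.26 (exact permutation test over 84 assignments, two-sided, p = 0.81, adjusted p = 0.929). With all 11 libraries and 0.5 CPM added to each gene, the difference was 0.67. The other 8 of the 10 ratios had fewer than 3 Ifnar1 -/- libraries with enough counts and were not tested in that form.

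Within the surrogate light chain, Vpreb1 over Igll1 stayed between 0.299 and 0.696 in the 7 libraries that allowed it. It was 0.32 and 0.663 in Ifnar1 -/- libraries 3 and 5, against 0.299, 0.529 and 0.473 in Ifnar1 +/- libraries 3, 4 and 5. Ifnar1 +/- library 2, whose Igll1 level was 15.5 CPM, had a ratio of 0.536, inside the range of the high libraries. Ifnar1 -/- library 1 had too few Igll1 counts for a ratio, with 40 counts of Vpreb1 against 2 of Igll1. Its counts lay far from the proportion in the other libraries, so the narrow range holds only where the count limit was met. Among the high libraries, Vpreb2 over Vpreb1 was far less steady than Vpreb1 over Igll1. Vpreb2 over Vpreb1 was 0.257 and 0.328 in Ifnar1 -/- libraries 3 and 5, and 0.0169, 0.415 and 0.0655 in Ifnar1 +/- libraries 3, 4 and 5. Vpreb3 over Vpreb1 was 2.8 and 1.16 in those Ifnar1 -/- libraries and 1.25, 1.51 and 1.78 in the Ifnar1 +/- libraries. Blnk over Cd79a was 0.0593 and 0.0946 in the Ifnar1 -/- libraries and 0.0609, 0.141 and 0.076 in the Ifnar1 +/- libraries.

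Genes of the steps before and after the pre-B-cell receptor were set against Igll1. Dntt, terminal transferase, adds bases at heavy chain joints and is a gene of pro-B cells. It had 0.216, 0, 0.322, 0.258 and 175 CPM in Ifnar1 -/- libraries 1 to 5, against 0, 1.2, 0.324, 46.4, 7.83 and 0.0324 CPM in Ifnar1 +/- libraries 1 to 6. Dntt over Igll1 was 0.0918 in Ifnar1 -/- library 5, against 0.0272 and 0.00472 in Ifnar1 +/- libraries 4 and 5. Ifnar1 -/- library 3 and Ifnar1 +/- library 3 each had only 9 counts of Dntt, beside 29531 and 78397 counts of Igll1, so the high libraries differed from each other in Dntt in both genotypes. Rag1 and Rag2, which cut the gene segments to be joined, were also among the genes high in these libraries. Rag2 had 0.185, 0, 27.5, 0 and 16.5 CPM in Ifnar1 -/- libraries, against 0.0804, 1.03, 6.36, 38.1, 35.4 and 0 CPM in Ifnar1 +/- libraries.

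Igkc, the kappa constant region, had 0, 72.3, 50.1, 7.1 and 430.4 CPM in Ifnar1 -/- libraries 1 to 5, against 82.4, 53.3, 102, 326, 515 and 47.4 CPM in Ifnar1 +/- libraries 1 to 6. Igkc over Igll1 was 0.0474 and 0.226 in Ifnar1 -/- libraries 3 and 5, against 0.0362, 0.191 and 0.31 in Ifnar1 +/- libraries 3, 4 and 5. It was 55.4 and 3.44 in Ifnar1 +/- libraries 1 and 2, where Igll1 was low. Iglc1, a lambda constant region, was highest in Ifnar1 -/- library 3 at 469 CPM, with 26.3 CPM in Ifnar1 -/- library 5, against 27.9, 333 and 150 CPM in Ifnar1 +/- libraries 3, 4 and 5. Ms4a1, which encodes CD20 of later B cells, had 2.14 and 151 CPM in Ifnar1 -/- libraries 3 and 5, against 4.67, 65.2 and 125 CPM in Ifnar1 +/- libraries 3, 4 and 5. Library 3 of each genotype was thus low in both Dntt and Ms4a1 among the high libraries. Ighd, the delta heavy chain of mature B cells, had 0, 0.154, 25.5, 0.11 and 28.9 CPM in Ifnar1 -/- libraries 1 to 5, against 0.684, 0.367, 26.2, 17.8, 79.3 and 0.0324 CPM in Ifnar1 +/- libraries 1 to 6, so it was high in the same 5 libraries as the receptor genes. Fcer2a, which encodes CD23 of mature B cells, did not exceed 0.313 CPM in any library.

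**Figure D3:**
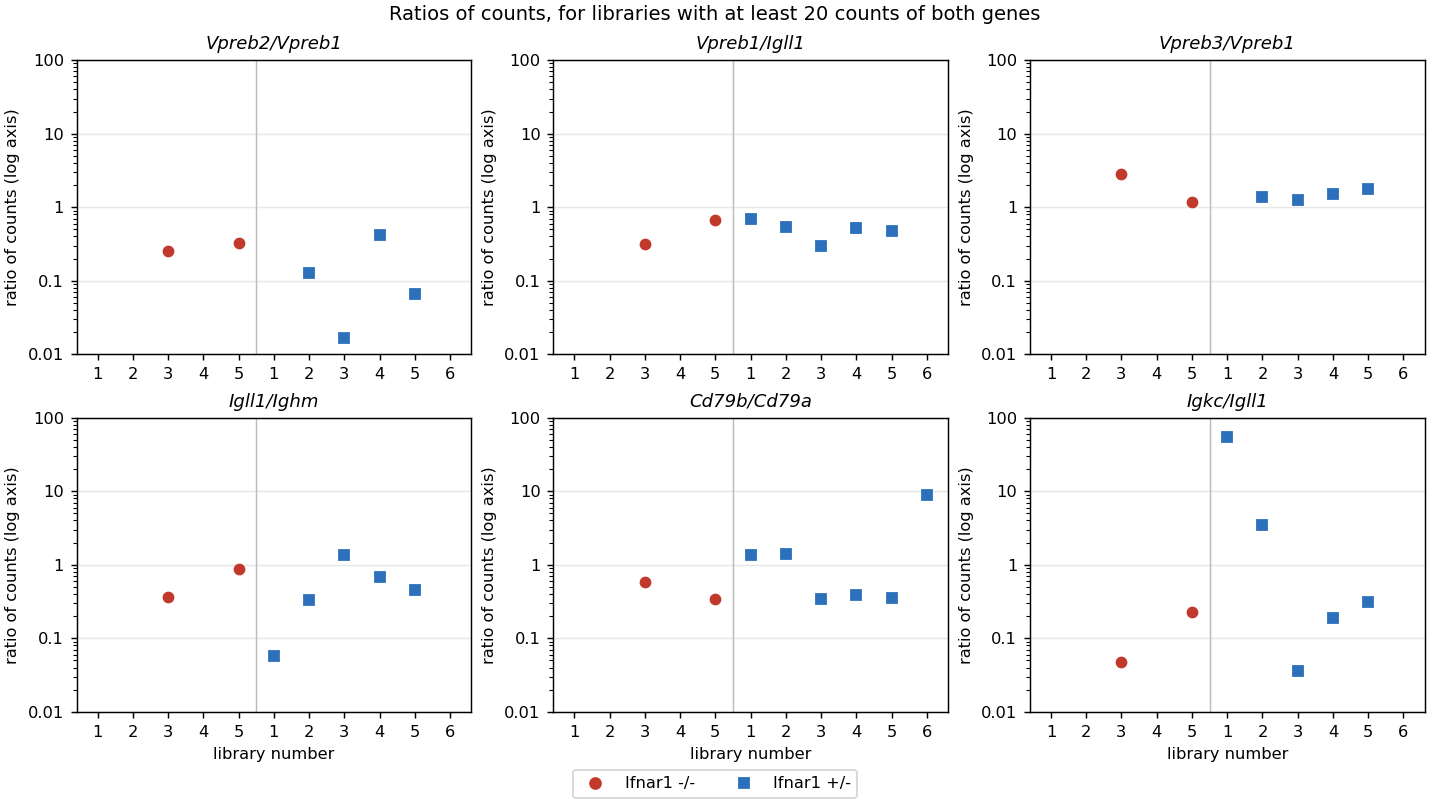
Ratios of counts between pre-B-cell receptor genes, and of Igkc to Igll1, on a log axis, for libraries with at least 20 counts of both genes, Ifnar1 -/- left of Ifnar1 +/-. Igkc over Igll1 lies between 0.0362 and 0.31 in the high libraries and reaches 55.4 in Ifnar1 +/- library 1.

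With all 11 libraries kept and 0.5 CPM added to each gene, none of the 10 ratios passed an adjusted p of 0.05 (exact permutation tests, two-sided, adjusted p from 0.812 to 0.983). Plasma cells also hold Ighm and light chain transcripts. The summed level of 4 plasma cell genes was 111 to 246 CPM in Ifnar1 -/- libraries and 105 to 308 CPM in Ifnar1 +/- libraries. Xbp1 alone ran from 55.6 to 221 CPM in Ifnar1 -/- libraries and from 103 to 296.5 CPM in Ifnar1 +/- libraries. Sdc1 and Prdm1 did not exceed 53.1 and 1.86 CPM in any library, so the sum is not a measure of plasma cells. Jchain, which joins secreted antibody units, was at 0.154, 7.16, 0.893, 1.8 and 34.3 CPM in Ifnar1 -/- libraries, against 11.2, 4.17, 0.216, 2.5, 10.5 and 5.41 CPM in Ifnar1 +/- libraries. The part of plasma cells in the Ighm and Igkc of the low libraries was not tested.

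Other genes of the pathway were taken from lists chosen with earlier results of these data known, and 0 genes of any list were called between the genotypes. A gene was counted as sharing the pattern where its 5 highest libraries were those of Cd79a and the fifth was at least 2-fold above the sixth, which held for 514 of 14521 genes (3.54%). Of 18 tested kinases and adaptors downstream, 2 shared it, among them Vav2. Btk, a kinase that docks on Blnk and that myeloid cells also use, ran from 162 to 289 CPM in Ifnar1 -/- libraries and from 132 to 206 CPM in Ifnar1 +/- libraries. Btk was counted at these levels also in the libraries where Cd79a was low. The median log2 fold change of these 18 genes was 0.15, with 6 below 0 and 12 above, beside a median of -0.015 for all genes. It was 0.01 without Ifnar1 -/- library 2, and -0.009 with limma voom, with 11 below 0 and 7 above. Without Ifnar1 -/- library 2 and Ifnar1 +/- library 6 it was -0.082.

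Of 15 transcriptional regulators of the B lineage, 7 shared the pattern: Ebf1, Pax5, Spib, Irf4, Irf8, Bach2 and Tcf3. Ebf1, the factor that opens the B-cell programme, had 0.0308, 0.0515, 655, 0.0368 and 529.7 CPM in Ifnar1 -/- libraries 1 to 5, against 1.37, 8.71, 744, 644, 645 and 0.389 CPM in Ifnar1 +/- libraries 1 to 6. Pax5, which fixes B-cell identity, had 0.0617, 0.0515, 106, 0 and 147 CPM in Ifnar1 -/- libraries, against 0.201, 1.07, 173, 187, 201 and 0.0972 CPM in Ifnar1 +/- libraries. The drop from the fifth to the sixth library was 60.8-fold for Ebf1 and 99.2-fold for Pax5, and 2.41-fold for Tcf3, a more widely used E protein. The median over these 15 genes was -0.32 (log2 fold change), with 9 below 0. Spib, an ETS factor of B cells, had 0.0925, 0.103, 170, 0.0736 and 265 CPM in Ifnar1 -/- libraries, against 0.241, 3.13, 318, 174, 332 and 0 CPM in Ifnar1 +/- libraries.

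Of 11 inhibitory receptors and phosphatases, 1 shared the pattern, Cd22, an inhibitory lectin of B cells with a 71.5-fold drop. Ptpn6 (log2 fold change 0.97, unadjusted p = 0.0313) and Csk (0.59, unadjusted p = 0.0355) were the 2 of these 11 at an unadjusted p under 0.05 in edgeR, where 1.99% of all genes were, and neither passed adjustment (adjusted p = 0.9998). Neither was under 0.05 with the replicate block or limma voom, nor once Ifnar1 -/- library 2 was left out, nor after leaving out library 1 or library 6 of Ifnar1 +/-. Ptpn6 stood at 1413 CPM in Ifnar1 -/- library 2 and at no more than 493.1 CPM in any other library. The median of the 11 was 0.45, and it was -0.13 without Ifnar1 -/- library 2, the library with the summed neutrophil marker level of 29724 CPM. Of 7 tested pro-B and recombination genes 2 shared the pattern, of 5 pre-B genes 1 and of 8 light chain and mature B genes 5. The median log2 fold change was -0.54 for the pro-B list with 5 genes below 0, -0.09 for the pre-B list with 3 below 0, and -0.37 for the light chain list with 6 below 0. Ccnd3, the cyclin that pre-B-cell proliferation needs, did not follow the receptor genes, at 188.5, 572, 139.5, 203 and 611 CPM in Ifnar1 -/- libraries against 262, 179.5, 247.5, 705, 369 and 207 CPM in Ifnar1 +/- libraries. Of the marker lists of other cell types, those of plasma cells, plasmacytoid dendritic cells, monocytes, neutrophils, eosinophils, erythroid cells and megakaryocytes held 0 genes with the pattern, and that of T and NK cells held 1 of 3, Cd4 with a 2.2-fold drop.

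Among all genes tested, those nearest to the mean profile of the 8, by root-mean-square distance of centred log2 CPM over 11 libraries, were Pax5 at 0.415, Chst3 at 0.489, Spib at 0.567, Hspb8 at 0.647, Tnfrsf19 at 0.675 and Dlg2 at 0.725. The 8 genes themselves lay between 0.707 for Blnk and 2.12 for Cd79b, while the median of all genes was 4.96 and the 5th percentile 3.86. The mean profile contains each of the 8, so their nearness to it is in part built in. After Cd79b, the farthest of the 8 were Ighm at 1.84 and Igll1 at 1.82.

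Protein-coding genes within 50 kb of the 8, and any genes overlapping them, were read next. Of 16 tested, 6 shared the pattern, against 3.54% of all genes tested. Immunoglobulin genes such as Ighd have a gene type of their own and were not counted as neighbours. Ighm and Vpreb2 had no neighbour of the kinds counted, so the count does not describe their surroundings. Of the 6 genes, 5 lay around Vpreb3. Chchd10, 5310 bp from Vpreb3 and known as a mitochondrial protein, had 5.8, 1.8, 403, 4.56 and 618 CPM in Ifnar1 -/- libraries 1 to 5, against 19.5, 12.2, 443, 531, 414 and 16.6 CPM in Ifnar1 +/- libraries 1 to 6. Mmp11, a secreted protease gene 6561 bp from Vpreb3, stood 43.7-fold higher in the fifth-highest library than in the sixth. Smarcb1, a chromatin remodelling subunit 21440 bp away, had the same 5 highest libraries with a 2.19-fold drop to the sixth, and it was at least 90.4 CPM in every library. Derl3 and Gm5134, also near Vpreb3, and Scn4a, near Cd79b, shared the pattern at low levels. They did not exceed 3.77, 4.05 and 3.92 CPM in any library, in that order. Of the other neighbours of Igll1 and Vpreb1, Ppm1f and Top3b did not share the pattern, and Spag6l did not pass the filter on low counts. Ppm1f, a phosphatase gene, had the same 5 highest libraries but with a smaller gap, at 101 and 52.7 CPM in Ifnar1 -/- libraries 3 and 5 against 128, 65.1 and 80.1 CPM in Ifnar1 +/- libraries 3, 4 and 5, and 32 CPM in the sixth-highest library, Ifnar1 -/- library 1. Top3b, whose start overlaps the start of the Vpreb1 gene model on the other strand, ran from 39.4 to 60.4 CPM in Ifnar1 -/- libraries and from 30.2 to 65.7 CPM in Ifnar1 +/- libraries. The read strand is not given in the sources used here, so reads in the overlap of Top3b and Vpreb1 cannot be told apart. Dntt, 34740 bp from Blnk, did not pass the filter on low counts, so the pattern was not scored for it.

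**Figure D4:**
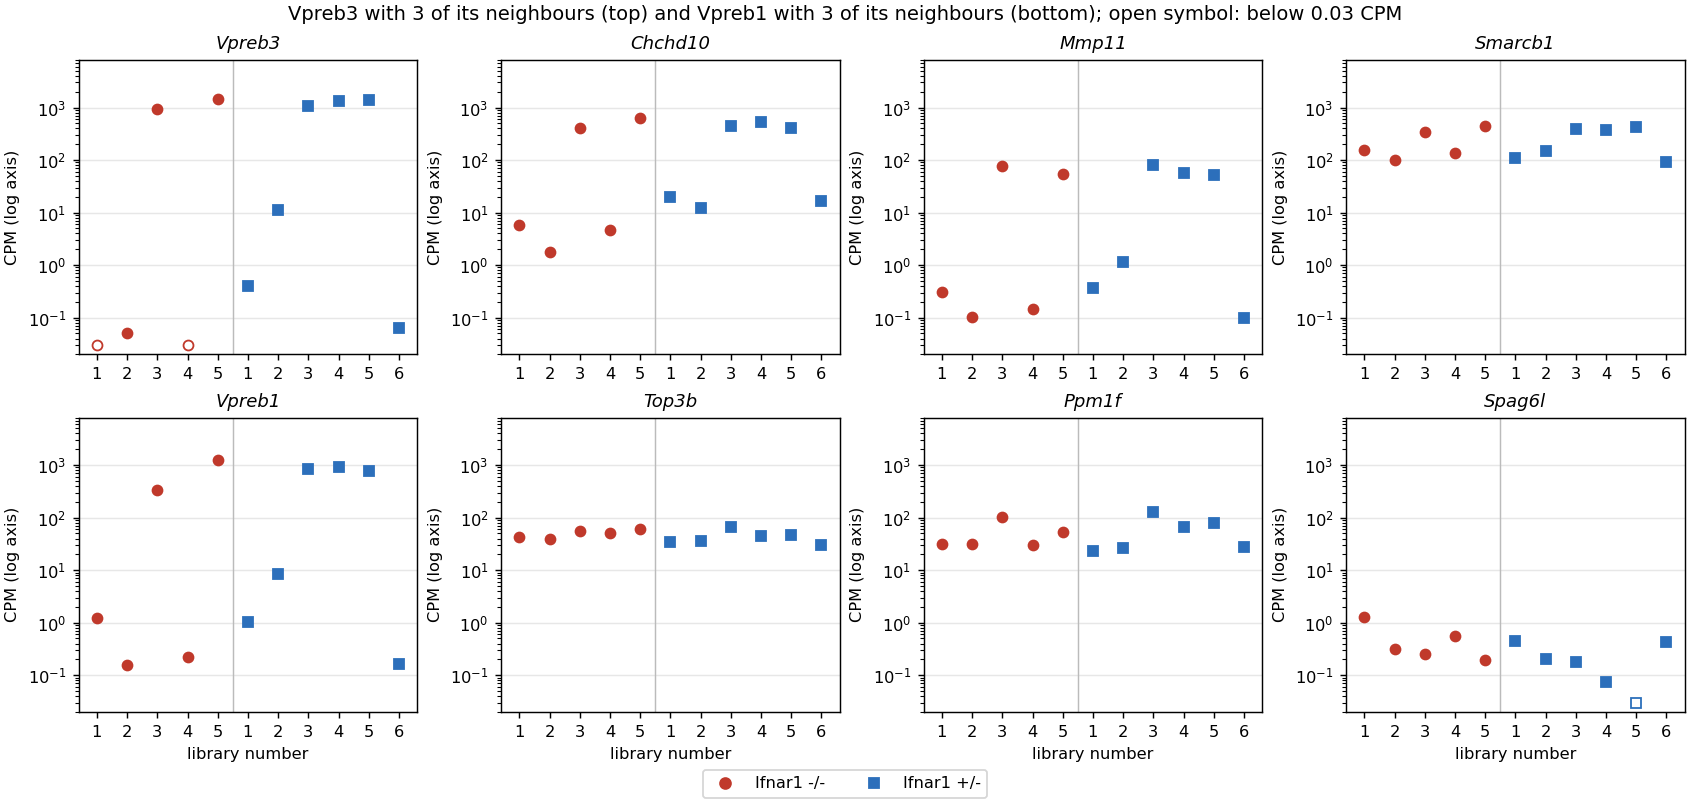
CPM (log axis) of Vpreb3 and Vpreb1, each with 3 neighbours within 50 kb, in every library, Ifnar1 -/- left of Ifnar1 +/-. Open symbols mark libraries below 0.03 CPM. Chchd10 falls to 19.5 CPM or less outside the 5 high libraries, whereas Top3b stays between 30.2 and 65.7 CPM in all 11.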

How the data were processed

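The authors deposited a table of estimated counts per gene for the 11 libraries. Per the labels' protocols, a Qiagen kit was used for total RNA and a Clontech kit for the libraries. Tools named in the submitters' processing notes are bcl2fastq and DRAGEN, without versions. Neither the genome build nor the annotation is given in the sources used here, so gene positions come from GENCODE M21 models on GRCm38 matched by Ensembl identifier. The table had 55774 lines, of which 287 repeated copies of 168 identifiers were dropped. A symbol was found for 55141 of the 55487 genes, and genes without one held at most 0.0219% of the counts of a library.

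Counts were rounded, filtered by genotype with filterByExpr, scaled by TMM factors and tested with the robust quasi-likelihood test of edgeR 4.0.16 in R 4.3.3, fitted over all 14521 genes with no covariate. CPM values use TMM library sizes. limma 3.58.1, DESeq2 1.42.0, other scalings and filters, a replicate term, sums of Vpreb1 and Vpreb2, and leaving out each library were alternatives. The fit was also run on simulated data with the same spread for every gene, smaller than in these data. That run does not show how the fit behaves for the 8 genes. Single values and ratios were compared with exact permutation tests in scipy 1.17.1. The 8 genes, the companion lists, the motifs and the tests were chosen with earlier results of these data known. In each companion list the text gives values for genes among the 3 with the highest mean CPM and for genes that bear on a ratio or a count. Mpo and Elane, Rag2, Ms4a1, Ighd, Fcer2a, Pax5 and the genes beside Vpreb3 were named after their values were seen. The values of 1 gene of the kinase and adaptor list are not reported here. Library totals of 25583642 to 38728143 counts set the precision, and Wilson intervals are at the 95% level. Reads have no molecular identifiers stated, so intervals cover counting error only.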

Additional observations from a re-analysis of the deposited data

Results flagged for a closer look

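Of 25 sets of 4 to 6 libraries examined, 5 held a library far from the others of its genotype. The threshold, Dixon's 95% critical value, is set so that chance does so in about 1 in 20 sets of normally distributed values. That rate was not measured here, and sets of genes that vary together are not independent. Vpreb1 in Ifnar1 -/- library 5 was 1265 CPM, above 338 CPM in the next Ifnar1 -/- library. Vpreb2 was 415 CPM in Ifnar1 -/- library 5, where the next Ifnar1 -/- library had 86.9 CPM, and 374 CPM in Ifnar1 +/- library 4, where the next Ifnar1 +/- library had 51.4 CPM. The Cd79b to Cd79a count ratio was 8.87 in Ifnar1 +/- library 6, while no other Ifnar1 +/- library exceeded 1.39. The Igkc to Igll1 count ratio was 55.4 in Ifnar1 +/- library 1, and the next Ifnar1 +/- library was at 3.44.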

How the results depend on the processing

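No gene of the 8 was called between the genotypes under any alternative run, while DESeq2 called 5 genes over the whole table. The log2 fold change of Vpreb2 was 0.45, and -4.77 with limma voom, -1.25 with the replicate block and -0.20 as a difference of mean log2(CPM + 1). Leaving out each library in turn, Vpreb2 ran from -1.76 to 2.91, Cd79b from -1.10 to 0.025 and Ighm from -1.25 to 0.16. Igll1, Vpreb1, Vpreb3, Cd79a and Blnk stayed below 0 when each library was left out, with ranges from -1.97 to -0.19, -2.32 to -0.03, -1.43 to -0.01, -1.52 to -0.25 and -2.14 to -0.16 in that order. Ighm over Cd79a had a log2 difference of 0.67 with all 11 libraries and 0.5 CPM added, 1.001 with at least 100 counts of both genes, and -1.17 to 0.41 when each library was left out. Vpreb1 over Ighm ran from -0.93 to 0.47. With each library left out, medians ran between -0.70 and 0.45 for the pro-B list, -0.26 and 0.11 for the pre-B list, -1.54 and 0.17 for the light chain list, -0.79 and -0.01 for the regulators, 0.01 and 0.22 for the kinases, and -0.13 and 0.60 for the inhibitory genes, with 0 genes called. The causes were not tested.

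Same-numbered libraries had correlations of deviations from -0.547 to 0.584, and 1 of 10 correlated best with its own number, so the numbers were not taken to pair samples. The replicate block gave 0 calls, as did the fit without it, and Igll1 was at -4.44 under it. With 5 and 6 libraries and a biological coefficient of variation of 0.782 over all genes, differences smaller than the spread of these genes were not detectable.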

Other observations

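Marker genes of other cell types were read in the same libraries. The summed level of the T and NK cell list was 10.9 to 194 CPM in Ifnar1 -/- libraries and 6.76 to 296 CPM in Ifnar1 +/- libraries. Trac alone reached 184 CPM in Ifnar1 -/- libraries and 289 CPM in Ifnar1 +/- libraries. Klrb1c and Cd3d reached 60.1 and 18.3 CPM, while Cd3e and Trbc1 did not exceed 0.357 and 0.367 CPM in any library. Plasmacytoid dendritic cell markers, of a cell type that also transcribes some B-lineage genes, summed to 0.669 to 4.88 CPM in Ifnar1 -/- libraries and 0.0402 to 17.9 CPM in Ifnar1 +/- libraries, with Siglech and Klk1 at 0 in all 11. Monocyte markers summed to 43.2 to 129.8 CPM in Ifnar1 -/- libraries and 20.3 to 591 CPM in Ifnar1 +/- libraries. Megakaryocyte markers summed to 12.8 to 1788 CPM in Ifnar1 -/- libraries and 18.3 to 2689 CPM in Ifnar1 +/- libraries. The neutrophil list ran from 4.42 to 29724 CPM in Ifnar1 -/- libraries and from 215 to 5358 CPM in Ifnar1 +/- libraries. The eosinophil list ran from 66.3 to 55379 CPM in Ifnar1 -/- libraries and from 4.99 to 1604 CPM in Ifnar1 +/- libraries. The erythroid list ran from 1208 to 7441 CPM in Ifnar1 -/- libraries and from 549 to 85520 CPM in Ifnar1 +/- libraries. Every one of these ranges overlapped between the genotypes.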
